A study of Mus musculus with 20 samples.

Results

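Tumours treated with both letrozole and anti-PD-1 were compared with vehicle tumours across every expressed gene. The comparison rests on 10 libraries, 5 from combination tumours and 5 from vehicle tumours, of 20 in the series. Of 38996 genes in the deposited table, 19877 had a normalised count of at least 10 in at least 5 of the 20 libraries, and these were tested. A normalised count is the number of reads divided by a scaling factor of the library, and a log2 difference is taken on log2(normalised count + 1).

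All tumours grew from SSM3 cells, an oestrogen receptor-positive mouse mammary tumour line, in the mammary tissue of mice of the 129S6/SvEv strain, which were 2 to 4 months old, and were treated from a volume of about 150 mm3. SSM3 is a single line, so all tumours share 1 origin. Combination mice were ovariectomised, injected subcutaneously with letrozole, 1 mg/kg, every day over 25 days, and given 250 µg of anti-PD-1 antibody on days 3, 5 and 7. Vehicle mice had a sham operation and daily injections of saline with 5% ethanol, with no antibody and no control antibody named in the labels. Letrozole-only mice had the surgery and drug without antibody, and anti-PD-1-only mice had sham surgery, ethanol in saline and antibody. Because no group had ovariectomy without letrozole, their parts cannot be told apart, and the word letrozole stands for the pair.

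Letrozole inhibits aromatase, the enzyme that makes oestrogens from androgens, and ovariectomy removes the main source of oestrogen. Without oestrogen, the oestrogen receptor no longer drives its target genes, of which the progesterone receptor gene Pgr is the one most used as a readout in mammary tumours. Anti-PD-1 blocks an inhibitory receptor of activated T cells. T cells released from that block secrete interferon gamma, which raises antigen presentation genes and the PD-1 ligand Cd274 on tumour cells.

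Recovered depth over all 20 libraries ran from 12495788 to 31393828 reads when 1 transcript was counted per gene. Every tumour held transcripts of luminal epithelium. Krt8, a luminal keratin, ran from 40513 to 63631 in vehicle tumours and from 53714 to 75222 in combination tumours, and its partner Krt18 from 21203 to 30268 and from 27473 to 35035. Vehicle tumour 3 stood apart from the other vehicle tumours, with a mean fibroblast marker level of 11.46 (log2 scale) against 6.51 to 9.65 and a mean T cell marker level of 5.55 against 3.00 to 3.83. Anti-PD-1 tumour 1, which enters the estimate of spread, had the lowest depth and stood apart on the second principal component, which held 13.3% of the variance. Combination tumour 2 had a mean skeletal muscle marker level of 7.52, against 2.52 to 3.45 in the other combination tumours.

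With the combination, 91 genes were higher and 143 were lower than with vehicle at an adjusted p under 0.05 (limma, Benjamini and Hochberg over all genes tested). These are 0.458% and 0.719% of the genes tested, and 1.18% for both directions. The lower genes had the larger differences, with 78 of 143 changed by at least 1 on the log2 scale and 42 by at least 2, against 36 and 7 of the 91 higher genes. The 5 combination values did not overlap the 5 vehicle values for 121 of the lower and 70 of the higher genes. Among all genes tested, 1.6% were lower and 1.32% higher without overlap. The genes named below for the largest changes were chosen from called genes without overlap, so their lack of overlap adds no support. The median log2 difference of all genes tested was 0.03. An unadjusted limma p under 0.05 was found for 2615 of the 19877 genes in either direction, where 5% of the genes tested is 994. Unadjusted counts of the lists below are to be read beside that share. Leaving out vehicle tumour 3 raised the counts to 308 higher and 388 lower, and 232 of the 234 genes were again called. Leaving out vehicle tumour 1, 2 or 4 or combination tumour 1, 3 or 5 lowered the total to between 122 and 147. Every adjusted p below is limma's over all genes tested unless another tool is named, values of single tumours follow the order of replicates 1 to 5, and errors after ± are SD over 5 tumours.

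Pgr, Stc2 and Nrip1, 3 of the 21 tested genes of the oestrogen and progesterone response list, fell. Pgr had the smallest p of all genes tested other than Gm16485, a predicted gene. Pgr, the progesterone receptor, had normalised counts of 14153, 17673, 11568, 17101 and 17633 in the vehicle tumours and 1618, 1439.9, 733, 1060.3 and 1324 in the combination tumours. All 5 combination tumours were far below the lowest vehicle tumour. Pgr fell 12.9-fold, with a log2 difference of -3.69 (SE 0.24, adjusted p = 1.09e-08). Stc2, which encodes the secreted glycoprotein stanniocalcin 2, had 7779.9, 9753, 3855, 7538 and 7084 in the vehicle tumours and 645, 1211, 1582, 945 and 925 in the combination tumours. It fell 6.79-fold without overlap (log2 difference -2.76, SE 0.29, adjusted p = 2.5e-05), and vehicle tumour 3 was the lowest of its group. Nrip1, a corepressor that binds the oestrogen receptor, had 2212, 2429, 1859, 2230.4 and 3050.3 in the vehicle tumours and 1131, 1213, 1055, 1114 and 1641 in the combination tumours. It also fell without overlap, but by less (log2 difference -0.94, SE 0.17, adjusted p = 0.00476).

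Esr1, the gene of the oestrogen receptor itself, was not called. Its normalised counts were 6933, 4516, 5483, 6159 and 4319 in the vehicle tumours and 4100.1, 5462, 5798, 6708 and 5348 in the combination tumours, and the groups overlapped across nearly their whole range. The log2 difference was 0.01, with a 95% interval of -0.29 to 0.30, so a change of Esr1 by more than 0.30 in either direction lies outside the interval. The mean was 5482 ± 1101 with vehicle and 5483 ± 939.5 with the combination, and the sign of this difference changed between settings.

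In the rest of the oestrogen and progesterone response list nothing else was called. None of the 21 members was called higher, and the median log2 difference of the list was -0.20, beside 0.03 for all genes. The list was mixed, with 9 positive differences (up to 0.78) and 12 negative ones. At an unadjusted limma p under 0.05, 2 members were higher and 8 lower. Negative members that missed the threshold included Myc, a growth-promoting transcription factor, at -0.65, and Wnt4, a mediator of progesterone signals to neighbouring cells, at -0.66. Car12, a carbonic anhydrase, was at -0.94 and missed it too. Areg, the EGF receptor ligand amphiregulin, ranged from 10957 to 40315 with vehicle and from 7842 to 18813 with the combination (log2 difference -0.52, adjusted p = 0.584). Ccnd1, which encodes cyclin D1 and has 23.4% of its exon bases in a neighbouring gene too, was at 0.36 (adjusted p = 0.362). Prlr, the prolactin receptor, was at 0.36 (adjusted p = 0.325). Greb1, an early oestrogen target in human breast cells, was below the filter, with 3.66, 3.40, 3.74, 2.38 and 1.58 in the vehicle tumours and 10.4, 0, 0, 4.37 and 0 in the combination tumours.

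**Figure D1:**
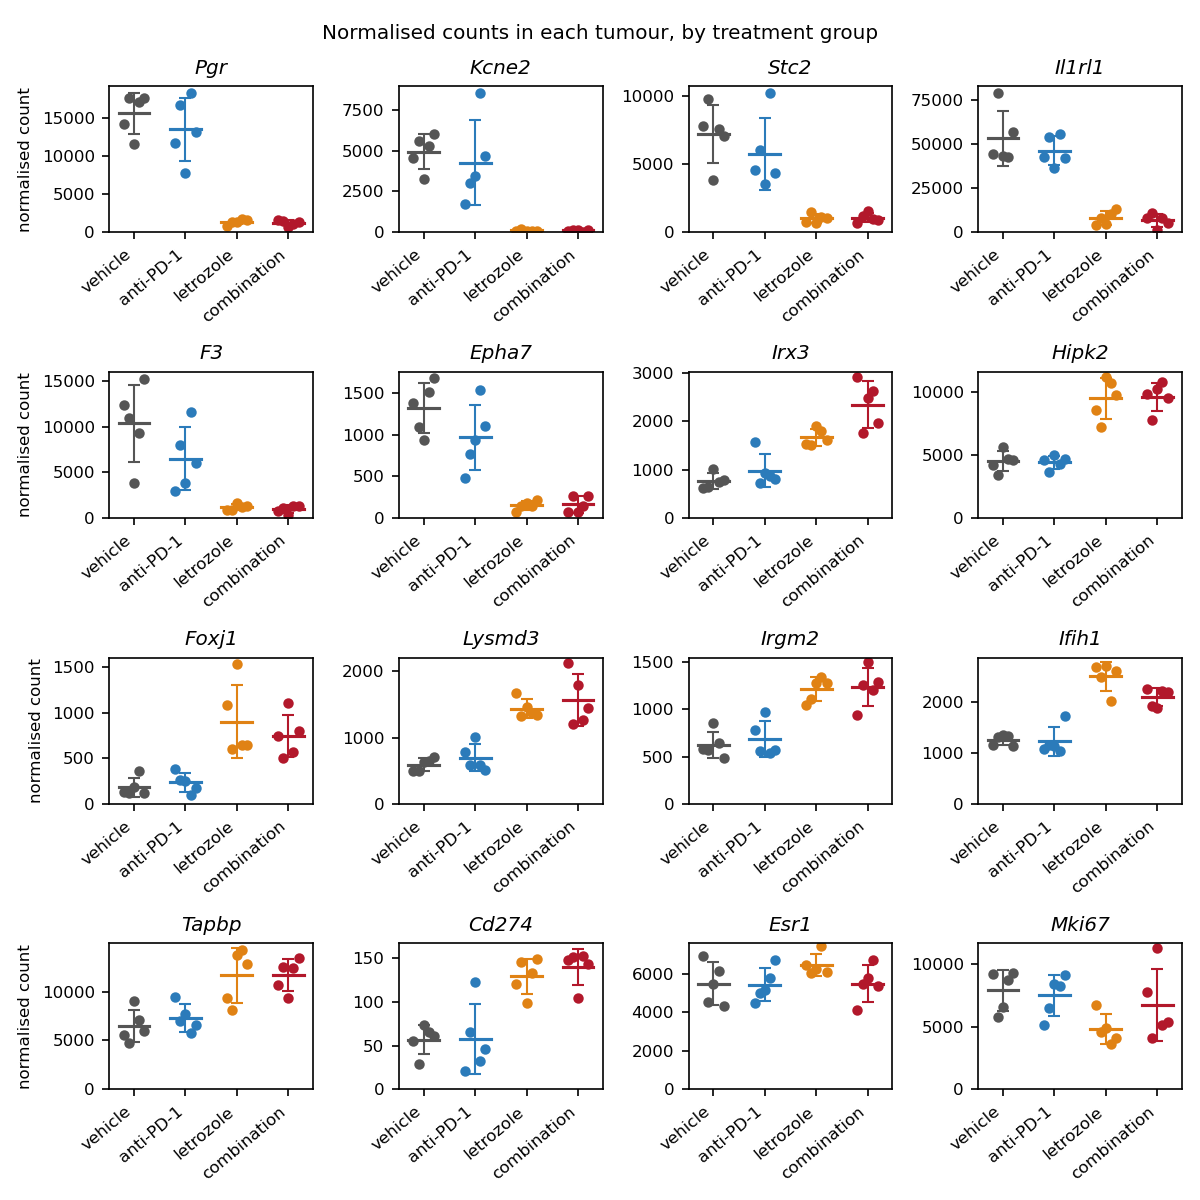
Normalised counts of 16 genes in each of the 20 tumours, by treatment group, on linear axes that start at 0. Each point is a tumour, the wide bar is the mean of 5 and the error bar is the SD. Pgr, Kcne2, Stc2, Il1rl1, F3 and Epha7 are near the bottom of the axis in all 5 combination tumours, Irx3, Hipk2, Foxj1, Lysmd3, Irgm2, Ifih1 and Tapbp are higher there than in all 5 vehicle tumours, and Esr1 and Mki67 overlap.

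The largest decrease among the called genes was that of Kcne2, which encodes an accessory subunit of potassium channels. It had 4574, 5597, 3271, 5294 and 6042 in the vehicle tumours and 41.7, 156, 131, 23.3 and 158 in the combination tumours. Even the highest combination tumour was far below the lowest vehicle tumour. Kcne2 fell 60.1-fold (log2 difference -5.91, SE 0.48, adjusted p = 4.06e-07). F3, which encodes tissue factor, the cell-surface initiator of blood clotting, had 12385, 10936, 3880.1, 9347 and 15300 in the vehicle tumours and 738, 1141, 359, 1326 and 1314 in the combination tumours. F3 fell 10.7-fold (log2 difference -3.42, SE 0.40, adjusted p = 6.01e-05), with vehicle tumour 3 the lowest of its group and still above every combination tumour.

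Il1rl1, which encodes ST2, the receptor of the cytokine interleukin-33, also fell. It had 44020, 78967, 43246, 42860 and 56706 in the vehicle tumours and 7811, 10597, 1449, 7964 and 5268 in the combination tumours. The groups did not overlap, and combination tumour 3 was the lowest of all. Il1rl1 fell 9.38-fold (log2 difference -3.23, 95% interval -4.07 to -2.39, adjusted p = 0.000105). ST2 is also made by mast cells, whose 9 markers tested had a median of -0.93 (from -1.48 without combination tumour 2 to -0.25 without combination tumour 3), 8 negative values and no call. Their list means (log2 scale) ran from 5.08 to 7.84 in vehicle and from 2.91 to 7.39 in combination tumours, and Cpa3, a mast cell protease, was at 137 ± 102 and 99.5 ± 100.2 normalised counts. The part of mast cells in the Il1rl1 result was not tested. Il33, the gene of the ligand, was at -0.45 (adjusted p = 0.672), and the summary of the interleukin-1 and gp130 list was 1 rise, 1 fall and a median of 0.06 over 15 members tested.

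Osmr was the member of that list that rose. It encodes the oncostatin M receptor, a partner of gp130, and had 338, 719, 828, 477 and 664 in the vehicle tumours and 1022, 1164, 1338, 1060.3 and 1678 in the combination tumours. Every combination tumour was above every vehicle tumour (log2 difference 1.09, SE 0.23, adjusted p = 0.0215). The adjusted p rose to at most 0.0751 when vehicle tumour 1 or 4 or combination tumour 3 or 5 was left out, or when only the 2 groups were fitted. Il6st, which encodes gp130, was at 0.41 and Lifr, the receptor of leukaemia inhibitory factor, at 0.52, while Il6ra, the interleukin-6 receptor, was at 661 ± 247 normalised counts with vehicle and 368 ± 196 with the combination, and none of these passed the threshold.

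Epha7, a receptor tyrosine kinase for ephrins, had 1377, 1090.4, 935, 1513 and 1675 in the vehicle tumours and 69.6, 262, 72.7, 138 and 262 in the combination tumours. It fell 9.34-fold without overlap (log2 difference -3.22, SE 0.37, adjusted p = 6.01e-05). Hpgd, the enzyme that inactivates prostaglandins, had 246, 396, 234, 133 and 952 in the vehicle tumours and 30.1, 32.9, 39.4, 49.5 and 56.6 in the combination tumours. The vehicle tumours differed from each other by several fold, yet the lowest of them was well above the highest combination tumour, and Hpgd fell (log2 difference -2.91, SE 0.49, adjusted p = 0.00324). Cyp3a57, a cytochrome P450 of the steroid- and drug-oxidising 3A family whose copies resemble each other, had 769, 604, 784, 743 and 779.5 in the vehicle tumours and 78.8, 98.7, 19.3, 136 and 81.1 in the combination tumours and fell 10.3-fold (log2 difference -3.37, SE 0.41, adjusted p = 9.12e-05). Hpgd and Cyp3a57 were the 2 members called among 14 tested of the eicosanoid and steroid metabolism list, whose median was 0.00, and Slco2a1, the prostaglandin transporter, was at 1.17 without a call. Prune2 had 988, 1059.7, 796, 785 and 998 in the vehicle tumours and 111, 238, 129.9, 233 and 150.0 in the combination tumours and fell 5.56-fold (adjusted p = 0.000587).

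Cxcl15 and Cxcl5, chemokines that attract neutrophils, fell. Cxcl15 had 787, 883, 726, 1048 and 1096 in the vehicle tumours and 126, 297, 9.28, 132 and 169 in the combination tumours. The groups were apart, and combination tumour 3 was far below the other combination tumours (log2 difference -3.20, SE 0.58, adjusted p = 0.00592, and 0.0776 with the 2 groups fitted alone). Cxcl5 had 12.8, 32.9, 20.6, 33.3 and 18.9 in the vehicle tumours and 0, 8.23, 0, 0 and 0.944 in the combination tumours. Its call (log2 difference -3.71, adjusted p = 0.00541) missed the threshold with edgeR on recovered reads, at an adjusted p of 0.0629. Cxcl3, which was on no list and is named after its value was seen, fell from 36.6 ± 28.2 to 2.46 ± 4.72 (adjusted p = 0.00833). Of 20 chemokines tested on the list, Cxcl15 and Cxcl5 fell, none rose, and the median was 0.55, which became 1.05 without vehicle tumour 3 and 0.21 without combination tumour 2. The neutrophil markers, 3 of 11 of which passed the filter, had a median of 0.08 and list means from 2.85 to 5.56 in vehicle tumours and from 3.06 to 5.48 in combination tumours, and their part in the chemokine result was not tested.

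Irx3 was among the genes that rose in every combination tumour. Irx3, a transcription factor of the Iroquois homeobox family, had 611, 639.9, 1020.3, 752 and 781 in the vehicle tumours and 2909.6, 1753, 2486, 2629.9 and 1957 in the combination tumours. The 5 combination tumours were all above the 5 vehicle tumours, and Irx3 rose 3.08-fold (log2 difference 1.62, SE 0.18, adjusted p = 5.31e-05). Irx3os, a noncoding transcript of the opposite strand with 3.3% of its exon bases in other genes too, had 245, 309, 519, 376 and 434 in the vehicle tumours and 1066, 926, 1204, 1348 and 889 in the combination tumours and rose by a similar amount (log2 difference 1.56, SE 0.19, adjusted p = 9.97e-05). No source used here states whether counting used the strand, so reads of Irx3 and Irx3os may be partly shared.

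Foxj1, the transcription factor that drives motile cilia, had 129, 115, 183, 364 and 121 in the vehicle tumours and 747, 504, 1101, 567 and 794 in the combination tumours. It rose 4.34-fold without overlap (log2 difference 2.12, SE 0.36, adjusted p = 0.0038). Of 12 motile cilia genes tested, Foxj1 rose and Dnaic1, an axonemal dynein intermediate chain, fell (log2 difference -1.32, adjusted p = 0.0168, 0.0506 without combination tumour 3 and 0.112 with the 2 groups fitted alone). The list's median was -0.02. Ccno, Mcidas, Dnah5, Dnah9, Tekt1 and Rsph1, further genes of multiciliated cells, were below the filter.

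Adgrv1, a very large adhesion receptor, had 495, 252, 488, 1019 and 594 in the vehicle tumours and 6277, 1347, 11752, 1379 and 1778 in the combination tumours. Every combination tumour was above every vehicle tumour, but combination tumours 1 and 3 were several fold above the other 3, and their mean was 4506 ± 4551 (log2 difference 2.54, 95% interval 1.47 to 3.60, adjusted p = 0.0141). With the 2 groups fitted alone the adjusted p was 0.0999. Slpi, a secreted protease inhibitor of epithelia, had 154, 118, 79.6, 57.1 and 437 in the vehicle tumours and 2917, 446, 1249.9, 236 and 1121 in the combination tumours. Its groups overlapped through vehicle tumour 5 and combination tumour 4 (means 169 ± 154 and 1194 ± 1055, adjusted p = 0.0408), and the adjusted p was between 0.0869 and 0.119 when vehicle tumour 1, 2 or 4 or combination tumour 1, 3 or 5 was left out. Slpi was the 1 of 9 tested members of the milk and secretory list that was called, and the casein genes Csn1s1, Csn1s2a and Csn2 were below the filter.

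Cavin2, a coat protein of caveolae, had 630.1, 473, 653, 438 and 617 in the vehicle tumours and 1595, 1156, 1076, 1820 and 1643 in the combination tumours and rose 2.57-fold (log2 difference 1.36, SE 0.25, adjusted p = 0.00659). Rcbtb2 had 474, 296, 744, 476 and 465 in the vehicle tumours and 1051, 1112, 959.9, 1688 and 1689 in the combination tumours and rose 2.68-fold (log2 difference 1.42, adjusted p = 0.00385). Lysmd3 had 493, 488, 628, 642 and 707 in the vehicle tumours and 2129.5, 1205, 1788, 1265 and 1448 in the combination tumours and rose 2.61-fold (log2 difference 1.39, adjusted p = 0.000151). Neither group of these 3 genes reached into the other. Hipk2, a kinase that phosphorylates p53, had 4163, 3407, 5608, 4637 and 4625 in the vehicle tumours and 9819.6, 7763, 10192, 10736 and 9522 in the combination tumours and rose 2.16-fold (log2 difference 1.11, SE 0.14, adjusted p = 9.12e-05). Lrrc8b, a subunit of volume-regulated anion channels, had 1216, 1400.1, 1524, 1442 and 1371 in the vehicle tumours and 2416, 1804, 2483, 2996 and 2134 in the combination tumours and rose 1.68-fold (adjusted p = 0.000947). Galnt18 (log2 difference 1.42, adjusted p = 0.0258), Cxcl17 (1.20, adjusted p = 0.035) and Slitrk5 (1.19, adjusted p = 0.0388) also rose, without overlap by the rule that named them. The calls of these last 3 were lost when vehicle tumour 1, 2 or 4 or combination tumour 5 was left out. Combination tumour 1 likewise decided the call of Galnt18, combination tumour 3 those of Cxcl17 and Slitrk5, and vehicle tumour 5 that of Slitrk5, with adjusted p up to 0.0833, 0.139 and 0.125 over all alternatives.

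Several of these genes lie beside each other on the chromosome. Of 221 called genes that could be placed in RefSeq gene order, 44 (19.9%) had an adjacent tested gene called in the same direction and 0 had one called in the opposite direction, while 1.33% of all placed tested genes were called. The runs numbered 20 and held 34 lower and 10 higher genes. In some runs the neighbours share exon bases, so their counts are not independent, but in the Pgr run no exon base is shared. On chromosome 9, Pgr lies next to Gm32014, a predicted gene that fell from 264 ± 66.5 to 9.44 ± 10.8 normalised counts (log2 difference -5.17, adjusted p = 2.5e-05), and to Trpc6, a calcium-permeable cation channel that fell from 885 ± 444 to 204 ± 51.2 (95% interval of the log2 difference -2.79 to -1.21, adjusted p = 0.00873). The tested genes beyond them on both sides did not pass. Cep126 was at 0.02 (95% interval -0.30 to 0.34) and Yap1, a growth-promoting coactivator, at 0.04 (-0.16 to 0.23) beyond Trpc6, and Arhgap42 was at 0.08 (-0.26 to 0.42) on the other side.

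The Kcne2 run on chromosome 16 held 3 genes. Slc5a3, a myo-inositol transporter, fell from 14007 ± 2668 to 3223 ± 1128 normalised counts (log2 difference -2.17, adjusted p = 6.01e-05). Mrps6, a mitochondrial ribosomal protein that shares 19.9% of its exon bases with Slc5a3 and a predicted gene, fell from 3004 ± 230.5 to 1249 ± 257 (log2 difference -1.29, adjusted p = 9.97e-05). The neighbours did not pass, with D430001F17Rik on one side at -0.42 (adjusted p = 0.206) and Smim11 on the other at -0.46 (adjusted p = 0.483). The 95% interval of D430001F17Rik was negative throughout (-0.73 to -0.11). So were those of Atp5o (-0.59 to -0.16) and Itsn1 (-1.02 to -0.12), further out on that side, which did not pass either. These genes were thus not shown to be unchanged. On the other side, the intervals of Smim11, Rcan1 and Clic6 spanned both directions. On chromosome 8, the run of higher genes was Irx3, Irx3os, Crnde and Irx5. Irx5, the second Iroquois gene of the cluster, had 1706, 2089, 2079, 1876 and 2069.8 in the vehicle tumours and 5009, 4348, 3964, 4286 and 3574 in the combination tumours, again without overlap (log2 difference 1.10, adjusted p = 0.0002), and Crnde, a noncoding transcript, rose from 56.3 ± 15.8 to 168 ± 68.9 (log2 difference 1.51, adjusted p = 0.0342). The adjacent tested genes did not pass, but their intervals were wide. Gm36380, a predicted gene beside Irx3, was at -0.93 (95% interval -3.71 to 1.85), and Mmp2, beside Irx5, was at 1.56 (-0.69 to 3.81). Fto, a tested gene further out beyond Irx3, was at 0.14 (-0.11 to 0.38). The shorter runs included Adgrv1 with Lysmd3 and Igtp with Irgm2 among the higher genes, and Stat5a with Stat5b, Cxcl3 with Cxcl15 and Msx2 with a noncoding neighbour among the lower ones.

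**Figure D2:**
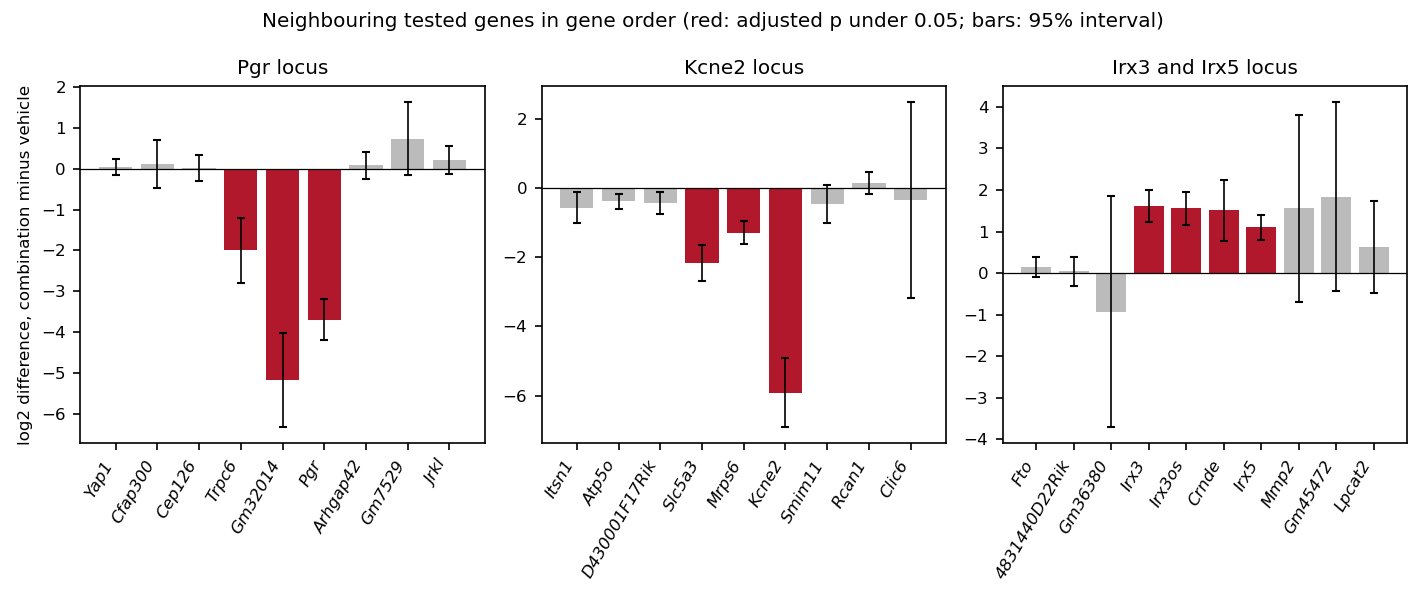
Log2 difference between combination and vehicle tumours (vertical axis, with 95% intervals) for neighbouring tested genes in RefSeq gene order around Pgr, Kcne2 and Irx3. Red bars passed an adjusted p of 0.05, and each red run of 3 or 4 genes is flanked by grey genes that did not pass.

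Interferon-inducible genes rose in part. Irgm2 and Igtp encode GTPases that act against intracellular pathogens and are induced by interferon gamma. Irgm2 had 581, 567, 851, 645 and 488 in the vehicle tumours and 941, 1259, 1499.7, 1206 and 1291 in the combination tumours, and no vehicle tumour reached the lowest combination tumour (log2 difference 0.99, SE 0.17, adjusted p = 0.0037). Igtp, which shares 8.0% of its exon bases with Irgm2, had 883, 669, 813, 760.1 and 779 in the vehicle tumours and 954, 1484, 1900.4, 1556 and 1792 in the combination tumours (log2 difference 0.94, SE 0.19, adjusted p = 0.0168). Gbp2, a guanylate-binding protein, had 744, 734, 1315, 930.2 and 732 in the vehicle tumours and 1169.6, 1605, 1497, 1987 and 1678 in the combination tumours. Vehicle tumour 3 reached into the combination range for Gbp2 (log2 difference 0.85, SE 0.18, adjusted p = 0.0195). Ifih1, the cytosolic sensor of double-stranded RNA also called MDA5, had 1157, 1318, 1357, 1325 and 1128 in the vehicle tumours and 2263, 1913, 1886, 2226 and 2195 in the combination tumours, with the groups well apart (log2 difference 0.74, SE 0.12, adjusted p = 0.00256).

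Most other interferon genes did not pass the threshold. Of 25 tested genes of the interferon gamma list, 3 rose (Irgm2, Igtp and Gbp2), none fell, and the median was 0.49, within a range of -0.82 to 1.33. Of 23 type I interferon and antiviral genes, Ifih1 rose, none fell, and the median was 0.47. Of the 23, 3 were called higher without vehicle tumour 3. The T cell-attracting chemokines Cxcl9 and Cxcl10, strongly induced by interferon gamma, were not called. Cxcl9 had 67.8, 2.27, 50.5, 59.5 and 26.8 in the vehicle tumours and 27.8, 85.6, 0.773, 29.1 and 15.1 in the combination tumours, and Cxcl10 had 60.4, 5.67, 48.7, 39.3 and 16.6 in the vehicle tumours and 17.4, 14.8, 15.5, 25.5 and 5.66 in the combination tumours. Their log2 differences were -0.64 (-3.36 to 2.09) and -0.82 (-2.26 to 0.62), intervals that span both directions, and the sign for Cxcl9 turned to 0.21 without combination tumour 3. The calls of Igtp and Gbp2 were each lost without vehicle tumour 2 or combination tumour 5 (adjusted p up to 0.0543 for Igtp and 0.0702 for Gbp2 over all alternatives), Igtp's also without combination tumour 3 and Gbp2's also without vehicle tumour 1 or 5 or combination tumour 4.

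The promoters of 4 of the higher genes are shown, chosen because they hold the core of the interferon-stimulated response element. That they share it follows from this choice, and all higher genes with the core are named below. Each line gives the 150 bases before the annotated start from RefSeq (GRCm38.p6, the reference mouse strain C57BL/6J, not the 129 strain of these tumours), 5′ to 3′ on the gene's strand. Capitals mark that core, GAAA and GAAA with any 2 bases between, or its reverse complement and, in Irgm2 and Igtp, also the gamma-activated site pattern, TTC and GAA with any 3 bases between. The positions are chr11:58214827-58214976 on the plus strand for Irgm2, chr11:58199406-58199555 on the plus strand for Igtp, chr3:142620513-142620662 on the plus strand for Gbp2 and chr17:36032702-36032851 on the minus strand for H2-T23.
Irgm2: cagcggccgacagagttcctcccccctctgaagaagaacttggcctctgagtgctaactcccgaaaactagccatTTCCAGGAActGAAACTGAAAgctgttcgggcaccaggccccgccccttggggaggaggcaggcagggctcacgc
Igtp: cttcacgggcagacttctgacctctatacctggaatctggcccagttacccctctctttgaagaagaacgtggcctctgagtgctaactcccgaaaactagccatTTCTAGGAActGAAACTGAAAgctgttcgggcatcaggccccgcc
Gbp2: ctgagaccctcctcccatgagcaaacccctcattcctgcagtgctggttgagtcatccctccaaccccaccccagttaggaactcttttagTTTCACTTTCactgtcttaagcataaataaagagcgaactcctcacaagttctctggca
H2-T23: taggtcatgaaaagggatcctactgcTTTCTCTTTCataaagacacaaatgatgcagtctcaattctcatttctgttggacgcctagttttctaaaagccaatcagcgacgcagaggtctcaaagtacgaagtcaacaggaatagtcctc

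In Irgm2 and Igtp both patterns stand next to each other, and the longest identical run of the 2 promoters is 38 bases. RefSeq windows of 300 bases (250 before to 50 after the start) were found for 12180 tested genes, 71 of them higher and 99 lower. The interferon-stimulated core on either strand was in 9 of the 71 (12.7%), namely Gbp2, Gm16214, H2-T23, Ifih1, Igtp, Irgm2, Irx3, Pld3 and Shisa5, in 1 of the 99 (1.01%), and in 3.73% of all windows. It was in 20 of the 35 windows of the interferon lists (57.1%), most of which belong to genes that did not pass the threshold. The gamma-activated pattern was in 9.86% of the higher, 6.06% of the lower and 8.37% of all windows. The palindromic oestrogen response element, GGTCA and TGACC with any 3 bases between, was in 0 of the called genes' windows and in 4 of all 12180, and TTTGAA, the core of the cell cycle homology region, was in 12 of the 99 lower windows and in 1827 of all 12180. These are matches of letters in a short window, not measured binding.

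Genes of MHC class I antigen presentation rose in part, and the number called depended on single tumours. Of 17 members tested, 5 rose (Tapbp, H2-T23, H2-Q4, Tap2 and H2-D1), none fell, and 7 had no overlap between the groups. Over all genes tested, 0.458% were called higher and 1.32% were higher without overlap. The list's median was 0.32, against 0.03 for all genes. The number called was 0 without vehicle tumour 1, 1 without vehicle tumour 2 or combination tumour 5, 3 without vehicle tumour 4 or combination tumour 2, 3 or 4, and 4 or 5 without any 1 of the others. Tapbp encodes tapasin, which loads peptides onto class I molecules, and had 5545, 4744, 9056, 7104 and 5943 in the vehicle tumours and 10625, 12530, 9326, 12398 and 13416 in the combination tumours. Every combination tumour was above every vehicle tumour, with vehicle tumour 3 close below the lowest of them (log2 difference 0.87, SE 0.18, adjusted p = 0.0176). H2-T23, the nonclassical molecule Qa-1 that is read by NK cell receptors, had 2677, 2262, 3579.6, 3050 and 3016 in the vehicle tumours and 3700.2, 5146, 4661, 4839 and 5384 in the combination tumours (log2 difference 0.71, adjusted p = 0.0195). Again the groups did not overlap.

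H2-D1, a classical class I heavy chain, was the most abundant of them, with 36756, 42857, 44367, 41113 and 43841 in the vehicle tumours and 47719, 62768, 72354, 59788 and 71547 in the combination tumours (log2 difference 0.58, adjusted p = 0.0396). H2-Q4 (log2 difference 0.61, adjusted p = 0.0143) and Tap2, a subunit of the peptide transporter (0.54, adjusted p = 0.0415), also rose without overlap. H2-K1 was at 0.45, Tap1 at 0.32 and B2m, the light chain of all class I molecules, at 0.17, all short of the threshold. The class I heavy chain genes are near-identical copies, so their single levels are uncertain. Other genes overlap 29.0% of the exon bases of Tapbp, 19.1% of those of H2-Q4 and 18.5% of those of Tap2. Tapbp and H2-T23 lost their calls without vehicle tumour 1 or 2 or combination tumour 5, with adjusted p up to 0.0595 and 0.0642, and H2-Q4 without vehicle tumour 1 (0.0511) or with the 2 groups fitted alone (0.0685). Tap2 kept its call without vehicle tumour 3 and lost it without any other 1 of the 10 tumours, with adjusted p up to 0.131. H2-D1 kept its call without vehicle tumour 3 or combination tumour 1 and lost it without any of the other 8, with adjusted p up to 0.124. Leukocytes also express these genes. The mean level of the class I list (log2 scale) was 12.04, 12.18, 12.29, 12.18 and 12.20 in the vehicle tumours and 12.31, 12.56, 12.62, 12.59 and 12.56 in the combination tumours, and the levels of the leukocyte lists are given below. The part of leukocytes in the class I result was not tested.

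The MHC class II genes, which mark professional antigen-presenting cells, gave no call. All 11 members tested had positive differences, with a median of 1.02, but the tumours of a group differed widely. The mean level of the list (log2 scale) was 6.68, 7.51, 9.62, 6.28 and 7.51 in the vehicle tumours and 7.96, 9.86, 6.91, 8.75 and 9.20 in the combination tumours. Vehicle tumour 3 was above 4 of the 5 combination tumours. Without vehicle tumour 3 the median was 1.58 (1.59 without combination tumour 3) and there were again 0 calls (limma, adjusted p under 0.05), while 1 member, Ctss, had an unadjusted p under 0.05 with all tumours.

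The target of the antibody and its ligands were low. Cd274, which encodes PD-L1, had 54.9, 29.5, 73.0, 65.4 and 61.5 in the vehicle tumours and 147, 151, 104, 152 and 143 in the combination tumours. The combination tumours were all above the vehicle tumours, but the difference did not pass (log2 difference 1.33, SE 0.35, adjusted p = 0.0696). It passed in 5 of 24 alternatives, with adjusted p from 0.00776 to 0.185 over all of them. The 5 were without vehicle tumour 3 (0.0399), without anti-PD-1 tumour 1 (0.0281), without both, with array weights and with DESeq2 on recovered reads. Another gene overlaps 14.1% of the Cd274 exon bases. Pdcd1, which encodes PD-1, had 0, 0, 30.9, 0 and 0 in the vehicle tumours and 9.27, 12.3, 3.09, 2.91 and 30.2 in the combination tumours. It was at 0 in 4 vehicle tumours, and the log2 difference of 2.21 had an interval of -0.23 to 4.66. Pdcd1lg2, the second ligand, was below the filter.

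Of 16 checkpoint genes tested, 1 fell, none rose, and the median was 0.49. The median was 0.79 with 2 called higher without vehicle tumour 3, and 0.30 without vehicle tumour 4. The gene that fell was Vtcn1, which encodes the inhibitory B7 family ligand B7-H4 of epithelial tumour cells. Vtcn1 had 518, 1294, 446, 1174 and 612 in the vehicle tumours and 93.9, 277, 33.3, 127 and 219 in the combination tumours. The lowest vehicle tumour was above the highest combination tumour (log2 difference -2.61, SE 0.51, adjusted p = 0.011). Havcr2, or TIM-3, was at 1.42, Vsir, or VISTA, at 1.11 and Lag3 at -0.09, none of them past the threshold.

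T cell transcripts were scarce in both groups. Cd8a had 0, 13.6, 30.9, 0 and 6.31 in the vehicle tumours and 2.32, 65.8, 17.0, 5.82 and 12.3 in the combination tumours and Cd4 had 7.33, 3.40, 18.7, 8.33 and 7.88 in the vehicle tumours and 9.27, 71.6, 14.7, 8.73 and 9.44 in the combination tumours. The highest value of both was in combination tumour 2, and the remaining tumours overlapped (log2 difference 1.35 with an interval of -1.07 to 3.76 for Cd8a, and 0.86 with -0.90 to 2.63 for Cd4). Foxp3, the factor of regulatory T cells, was at 273 ± 51.9 with vehicle and 245 ± 22.7 with the combination, but 31.5% of its exon bases lie in other genes too. The effector genes Ifng, Gzmb and Prf1 were below the filter. Ifng had 0, 0, 3.74, 0 and 0 in the vehicle tumours and 0, 8.23, 0, 0 and 0 in the combination tumours, Gzmb had 0, 0, 13.1, 0 and 0 in the vehicle tumours and 4.64, 0, 0, 7.28 and 1.89 in the combination tumours and Prf1 had 4.58, 0, 11.2, 0 and 7.88 in the vehicle tumours and 9.27, 4.11, 6.19, 2.91 and 12.3 in the combination tumours. At this depth a difference in these effector transcripts was not detectable.

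Of 17 T cell markers tested, none was called by limma, with 1 at an unadjusted p under 0.05 and none called by edgeR or DESeq2. Their median was 0.46, and it was 0.02 without combination tumour 2, 0.73 without combination tumour 1, 0.95 without vehicle tumour 3 and 0.24 without vehicle tumour 4. The mean marker level was 3.11, 3.48, 5.55, 3.00 and 3.83 in the vehicle tumours and 3.56, 5.99, 3.59, 3.64 and 4.47 in the combination tumours, so that 1 tumour in each group was well above the others. Of 15 cytotoxic and NK cell genes only 6 passed the filter, and none was called. Igkc, an immunoglobulin light chain constant gene, had 3.66, 27.2, 41.2, 0 and 4.73 in the vehicle tumours and 69.6, 381, 4.64, 96.8 and 175 in the combination tumours (log2 difference 3.26, adjusted p = 0.192), the smallest p of the B and plasma cell list, which held no call among 7 tested and 1 higher without vehicle tumour 3.

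Macrophage, dendritic cell and fibroblast markers had positive medians without calls. All 20 macrophage and monocyte markers were positive, with a median of 0.85 and list means of 7.22, 7.29, 9.13, 6.28 and 7.63 in vehicle and 7.96, 8.97, 8.15, 8.18 and 8.91 in combination tumours. All combination tumours were above all vehicle tumours other than tumour 3. Without vehicle tumour 3, 6 of the 20 macrophage markers were called higher and their median was 1.35, against 0.55 and no call without vehicle tumour 4. The dendritic cell markers had a median of 0.88, and without vehicle tumour 3 the median was 1.33 with 2 called higher. Mertk, a receptor by which macrophages take up dying cells, had 108, 56.7, 267, 60.7 and 73.3 in the vehicle tumours and 242, 175, 213, 129 and 242 in the combination tumours (log2 difference 1.04, adjusted p = 0.22 with all tumours and 0.024 without vehicle tumour 3). In bulk tumours, a change in the number of cells of a type and a change in RNA per cell cannot be told apart.

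Of 19 fibroblast and matrix genes none was called, with 16 positive and a median of 1.02. That median was 1.62 with 2 called higher without vehicle tumour 3, and 0.32 without vehicle tumour 4. Dcn, the matrix proteoglycan decorin, went the other way, with 847, 3313, 1304, 464 and 2117 in the vehicle tumours and 123, 964, 82.0, 588 and 505 in the combination tumours (log2 difference -2.05, adjusted p = 0.17). Adipocyte markers (12 tested, median 1.09), endothelial markers (16 tested, median 0.36), basal and myoepithelial markers (12 tested, median 0.48) and skeletal muscle markers (14 tested, median 1.15) held no call either by limma. The first 3 of these medians without vehicle tumour 3 were 2.05 for adipocyte, 0.64 for endothelial and 0.76 for basal and myoepithelial markers, and without vehicle tumour 4 they were 0.26, 0.01 and 0.18. On recovered reads with edgeR, the medians were 0.46 for macrophage and 0.21 for fibroblast genes. DESeq2 called 2 of the muscle markers, whose median was 0.04 without combination tumour 2. Of 15 luminal markers tested, 1 rose. It was Epcam, an epithelial adhesion molecule, with 19689, 20211, 16443, 20882 and 19049 in the vehicle tumours and 32183, 25773, 38255, 24590 and 32137 in the combination tumours. All combination tumours were above all vehicle tumours (log2 difference 0.65, SE 0.13, adjusted p = 0.0107, 0.0553 after centring each library on its median and 0.0520 with the 2 groups fitted alone), while the luminal median was 0.01.

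The complement list had 1 call among 17 tested and a median of 0.68. Leaving out vehicle tumour 3 gave 6 called higher and a median of 1.02, and leaving out vehicle tumour 4 a median of 0.31. C1s1, the protease that starts the classical cascade, had 843, 879, 2575, 966 and 1338 in the vehicle tumours and 4059.5, 3529, 3981, 2369 and 4184 in the combination tumours. Vehicle tumour 3 reached the range of the combination tumours, and the other vehicle tumours were below it (log2 difference 1.57, SE 0.25, adjusted p = 0.00205). Gm16567 overlaps 18.4% of the C1s1 exon bases. Its partner protease C1ra was at 0.63 without a call.

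**Figure D3:**
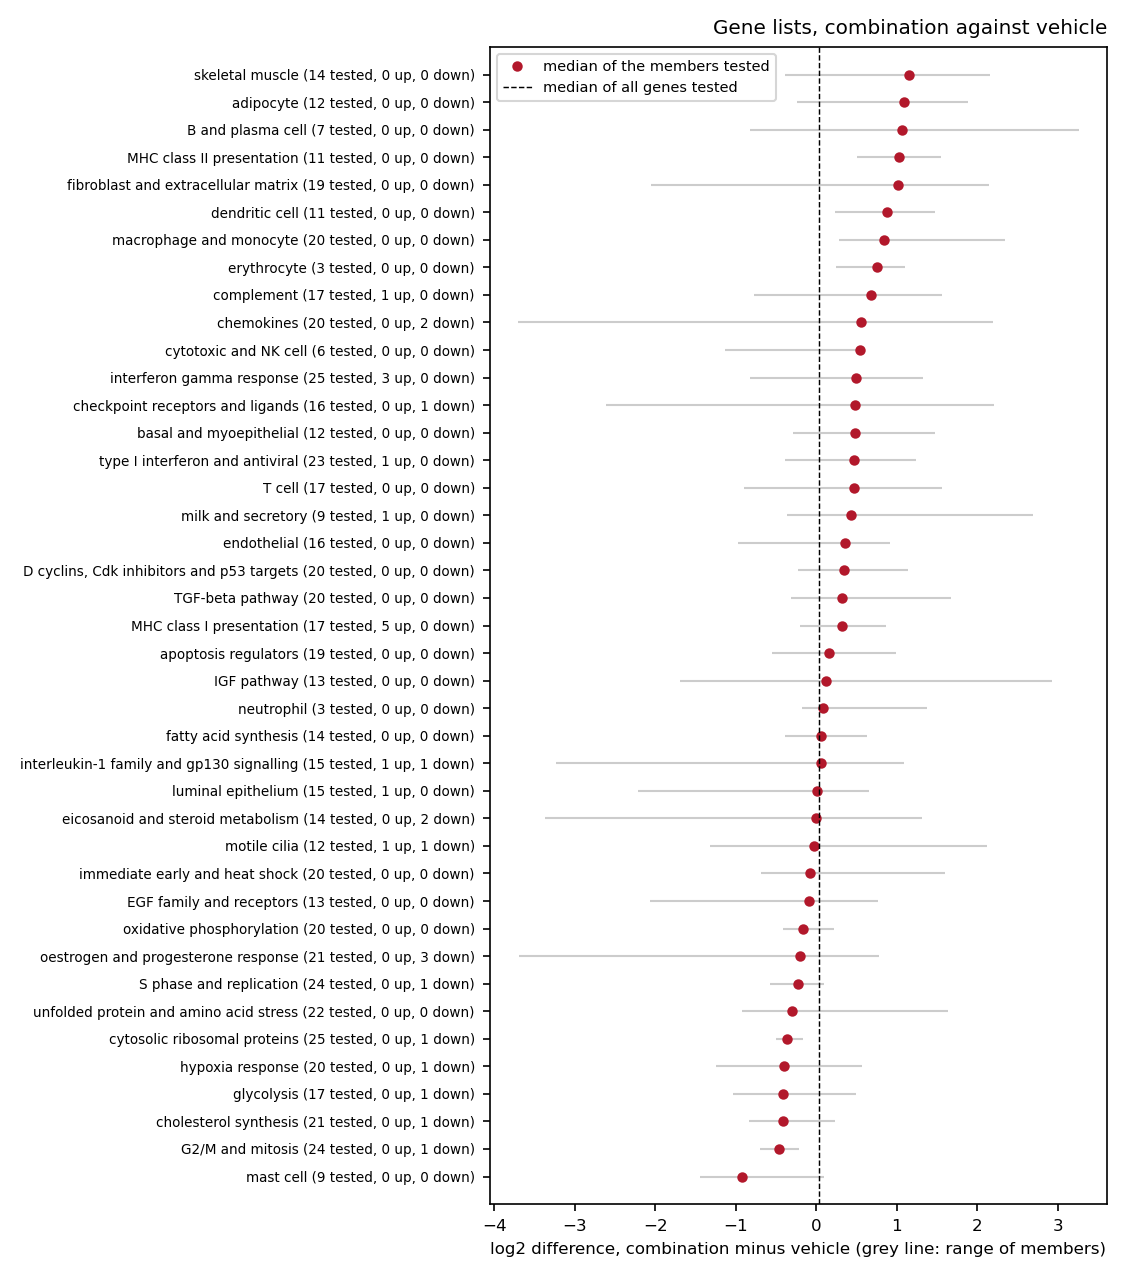
Median log2 difference between combination and vehicle tumours (red points) for each of 41 gene lists, with the range of its members (grey lines) and the median of all genes tested (dashed line at 0.03). The labels give the members tested and how many were called higher or lower. MHC class I presentation has 5 called higher and oestrogen and progesterone response 3 called lower.

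Cell division genes had negative differences, but not in every combination tumour. All 24 G2/M and mitosis genes had negative differences, with a median of -0.46 and 15 at an unadjusted p under 0.05, and 1 was called. Over all genes, 2615 of 19877 had such an unadjusted p in either direction. The mean level of the list was 10.87, 10.72, 10.48, 10.65 and 10.91 in the vehicle tumours and 10.71, 9.99, 10.81, 9.98 and 9.97 in the combination tumours. Combination tumours 1 and 3 were within the vehicle range, and the other 3 were below it. Mki67, the proliferation marker Ki-67, had 9189, 5764, 6546, 8717 and 9306 in the vehicle tumours and 7794, 4129, 11274, 5119 and 5372 in the combination tumours. Combination tumour 3 had the highest value of all 10 tumours (log2 difference -0.30, 95% interval -0.79 to 0.19, adjusted p = 0.628).

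Kif20a, a kinesin of cell division, was the mitotic gene called, with 2490.1, 2193, 1809.5, 1927 and 2229 in the vehicle tumours and 1811, 1283, 1219.7, 1101 and 1184 in the combination tumours (log2 difference -0.70, SE 0.15, adjusted p = 0.0225). Vehicle tumour 3 and combination tumour 1 met at the boundary of the groups. Of 24 S phase genes, 1 was called, with a median of -0.23. It was Cdt1, which licenses replication origins, with 1725, 1694, 1462, 1538 and 1466 in the vehicle tumours and 948, 1262, 961, 1378 and 844 in the combination tumours and no overlap (log2 difference -0.57, SE 0.12, adjusted p = 0.0169). Kif20a lost its call without vehicle tumour 1, 2 or 5 or combination tumour 3, 4 or 5 (adjusted p up to 0.0815), and Cdt1 without vehicle tumour 1 or 2 or combination tumour 1, 3 or 5 (up to 0.0574) or with the 2 groups fitted alone (0.112). When vehicle tumour 3 was left out, 2 G2/M and 3 S phase genes were called lower. With any other vehicle or combination tumour left out, 0 or 1 of each list was called. Cdc23 overlaps 29.3% of the Kif20a exon bases. No D cyclin, Cdk inhibitor or p53 target was called among 20 tested, by limma, edgeR or DESeq2. At an unadjusted limma p under 0.05, 5 were higher, beside 2615 of all 19877 genes in either direction. Bbc3, which encodes the death-promoting PUMA, had the smallest p (0.58, adjusted p = 0.252).

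**Figure D4:**
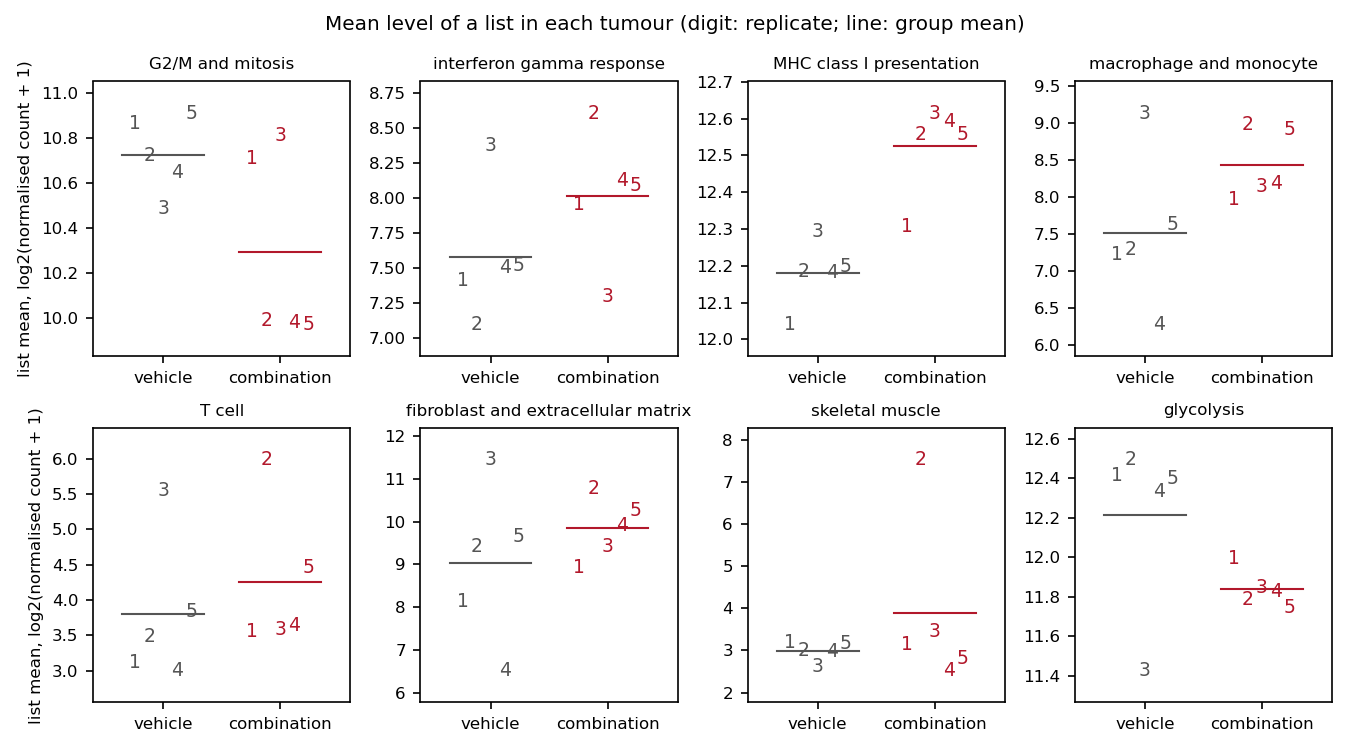
Mean log2(normalised count + 1) of the tested members of 8 gene lists in each vehicle (grey) and combination (red) tumour, with digits for the replicate and lines for the group mean, and a different vertical range in each panel that does not start at 0. For G2/M and mitosis, combination tumours 1 and 3 lie within the vehicle range and tumours 2, 4 and 5 lie between 9.97 and 9.99. Vehicle tumour 3 is the highest of its group for macrophage, T cell and fibroblast markers and the lowest for glycolysis.

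Genes of metabolism and translation had small negative differences, with 1 call in each of 4 lists. For glycolysis, 15 of 17 members were negative and the median was -0.41. Hk2, the hexokinase that tumours use to trap glucose, had 2552, 2092, 756, 2245 and 2112 in the vehicle tumours and 750.0, 755, 893, 1156 and 925 in the combination tumours. Vehicle tumour 3 was at the level of the combination tumours, and the other 4 vehicle tumours were above all of them (log2 difference -1.03, SE 0.24, adjusted p = 0.0347). Without vehicle tumour 3, 12 of the 17 glycolysis genes were called lower and the median was -0.62. That omission gave 388 lower calls over all 19877 genes. With any other vehicle or combination tumour left out, 0 or 1 of the glycolysis genes was called. The hypoxia response list, which shares Slc2a1 with glycolysis, had a median of -0.40. Of its 20 members, 9 were called lower without vehicle tumour 3, and 0 or 1 without any other vehicle or combination tumour. Kdm3a, a histone demethylase induced by low oxygen, was its 1 call with all tumours, at 5419.6 ± 807 with vehicle and 3882 ± 399.7 with the combination (log2 difference -0.47, adjusted p = 0.0415). Adm, which encodes the hypoxia-induced peptide adrenomedullin, was at -1.24 and Bnip3, a mitophagy receptor, at -0.99 without calls.

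Cholesterol synthesis had 20 of 21 members negative and a median of -0.42. Lss, or lanosterol synthase, had 1211, 2134, 1119, 1269 and 1405 in the vehicle tumours and 809, 827, 567, 1019 and 735 in the combination tumours without overlap (log2 difference -0.84, SE 0.18, adjusted p = 0.0193). Fatty acid synthesis had no call (1 lower without vehicle tumour 3 and 1 higher without combination tumour 2) and a median of 0.06. All 25 cytosolic ribosomal protein genes were negative, from -0.50 to -0.16, with a median of -0.36 and 19 at an unadjusted p under 0.05. Rpl7 was the 1 called, at 19802 ± 2276 with vehicle and 14099 ± 2329.8 with the combination (log2 difference -0.50, SE 0.11, adjusted p = 0.0267). Ribosomal protein genes have many processed copies, so their levels are uncertain. Without vehicle tumour 3, 8 of the 25 were called lower, and without any other vehicle or combination tumour 0 to 2 were. Hk2, Kdm3a and Rpl7 each lost their call when vehicle tumour 1, 2, 4 or 5 or combination tumour 1 or 5 was left out, and so did Hk2 and Kdm3a without combination tumour 2 or 3, with adjusted p up to 0.157, 0.140 and 0.162 over all alternatives. Lss lost its call without vehicle tumour 2 or combination tumour 3 or 5, with adjusted p up to 0.0583, or with the 2 groups fitted alone (0.0900), and without vehicle tumour 3 the list had 3 called lower.

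Growth factor lists held no call by limma with all tumours. Without vehicle tumour 3, 2 EGF family genes were called lower and 3 TGF-beta pathway genes higher, and the IGF pathway median went from 0.12 to 0.44. Among 13 genes of the EGF family, Btc, or betacellulin, had 1746, 4630.4, 1509, 1314 and 4099 in the vehicle tumours and 1274, 1446, 625, 726 and 1351 in the combination tumours (log2 difference -1.17, adjusted p = 0.0925, and 0.0405 without vehicle tumour 3). Epgn, or epigen, had 234, 969, 99.2, 182 and 762 in the vehicle tumours and 71.9, 67.5, 40.2, 50.9 and 234 in the combination tumours and overlapped (log2 difference -2.06, adjusted p = 0.111). DESeq2 called 2 members of this list lower. In the TGF-beta pathway 18 of 20 members were positive, with a median of 0.32, and Smad3 had the smallest p (0.31, adjusted p = 0.176). Among 13 IGF pathway genes, Igfbp5, a binding protein of insulin-like growth factors, had 15253, 5554, 6741, 6452 and 3833 in the vehicle tumours and 953, 4620, 383, 9787 and 2430.5 in the combination tumours, and the tumours of both groups overlapped (log2 difference -1.69, adjusted p = 0.325).

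The combination was then set against each single treatment, to describe how far it differed from each. Against letrozole alone, 0 of 19877 genes (0%) were called by limma and 628 had an unadjusted p under 0.05, where 5% of the genes tested is 994. edgeR called 0 (646 unadjusted) and DESeq2 called 9. Without anti-PD-1 tumour 1, which enters the spread, limma called 1, Gm47132. Pgr was at 1235 ± 346 with the combination and 1370 ± 361 with letrozole alone, a log2 difference of -0.15 (-0.65 to 0.35). Kcne2 was at 102 ± 64.6 and 104 ± 58.1 (-0.24, -1.24 to 0.75), and Hipk2 at 9607 ± 1126 and 9480.2 ± 1613 (0.03, -0.25 to 0.31). For Tapbp the interval of combination minus letrozole was -0.35 to 0.40 and for Cd274 -0.61 to 0.85. These intervals bound the added difference, and they do not show that it is 0.

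Letrozole alone against vehicle gave 189 called genes (0.951%), and anti-PD-1 alone against vehicle gave 0 (0%) by limma, with 541 at an unadjusted p under 0.05. The genes called for the combination against vehicle can be followed in the other contrasts, all of which share tumours with it. The 91 higher genes had a median log2 difference of 0.79 for letrozole alone against vehicle, 0.09 for anti-PD-1 alone against vehicle and 0.10 for the combination against letrozole alone. The 143 lower genes had medians of -0.88, -0.16 and -0.20. Because these genes were chosen on the same combination tumours, the medians are a description. Irx3 was at 1531, 1505, 1896, 1805 and 1614 in the letrozole tumours and 2909.6, 1753, 2486, 2629.9 and 1957 in the combination tumours (log2 difference 0.47, interval 0.09 to 0.85, unadjusted p = 0.0184, adjusted p = 1). Cxcl15 was at 266, 313, 303, 377 and 234 and 126, 297, 9.28, 132 and 169 (-1.60, interval -2.81 to -0.39, unadjusted p = 0.012, adjusted p = 1). Both pairs of groups overlapped, and neither difference passed adjustment. For Pgr the 4 group means were 15626 with vehicle, 13533 with anti-PD-1, 1370 with letrozole and 1235 with the combination, and for Irgm2 they were 626, 684, 1212 and 1239.

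The 3 genes per direction with the smallest p against letrozole alone were all short of the threshold. They were Gm47132, Gp5 and Gm38377, which were higher with the combination, and Lama3, Fcgbp and Hspa1b, which were lower. Lama3, a chain of the basement membrane protein laminin-332, had 257, 262, 340.1, 309 and 414 with letrozole and 118, 141, 114, 154 and 234 with the combination (log2 difference -1.08, interval -1.53 to -0.63, adjusted p = 0.703). Gp5, which encodes platelet glycoprotein V, had 4.39, 0, 0, 0 and 1.73 and 34.8, 28.0, 6.19, 18.2 and 34.0 (log2 difference 3.68, adjusted p = 0.913). Fcgbp, a mucin-like secreted protein, had 280.0, 134, 149, 527 and 818 and 0, 0, 9.28, 34.9 and 179 (log2 difference -5.03, adjusted p = 1), with wide spread among the letrozole tumours. Hspa1b, an inducible heat shock protein, was at -1.26 (adjusted p = 1). Lama3 passed the threshold with DESeq2 on recovered reads, at 0.0142, as did Gm47132 and Gp5.

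Lists were set beside each other in the same way. The median of combination minus letrozole was 0.34 for the 24 G2/M genes, of which 5 had an unadjusted p under 0.05, 0.02 for the 17 MHC class I genes with 0, and -0.16 for the 25 interferon gamma genes with 0. Mki67 was at 4787 ± 1203 with letrozole and 6738 ± 2872 with the combination (log2 difference 0.43, interval -0.06 to 0.92, unadjusted p = 0.0801). The 12 basal and myoepithelial markers had a median of -0.91, with 4 at an unadjusted p under 0.05, and their list means were 7.48, 9.19, 6.98, 9.27 and 10.57 in the letrozole tumours and 6.03, 8.17, 6.77, 7.69 and 7.95 in the combination tumours.

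Against anti-PD-1 alone, 213 genes (1.07%) were called, 95 higher and 118 lower with the combination. Pgr fell by 3.44 on the log2 scale (SE 0.24, adjusted p = 4.05e-08), from 11765, 16762, 7763, 18215 and 13162 in the anti-PD-1 tumours, and Kcne2 by 5.53 (adjusted p = 1.36e-06), from 1703, 3005, 3428, 8556 and 4700.4. Gm16485, a predicted gene, fell from 1608 ± 623 to 133 ± 22.9 (adjusted p = 2.2e-08). Hipk2 (1.12, adjusted p = 0.000102), Irx3os (1.47, adjusted p = 0.000339) and Lrrc8b (0.81, adjusted p = 0.000531) had the smallest p among the genes that rose. This contrast and that against vehicle share the 5 combination tumours. The count was 72 without anti-PD-1 tumour 4, 123 without anti-PD-1 tumour 2, and 110, 125 and 117 without combination tumour 1, 3 or 5.

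**Figure D5:**
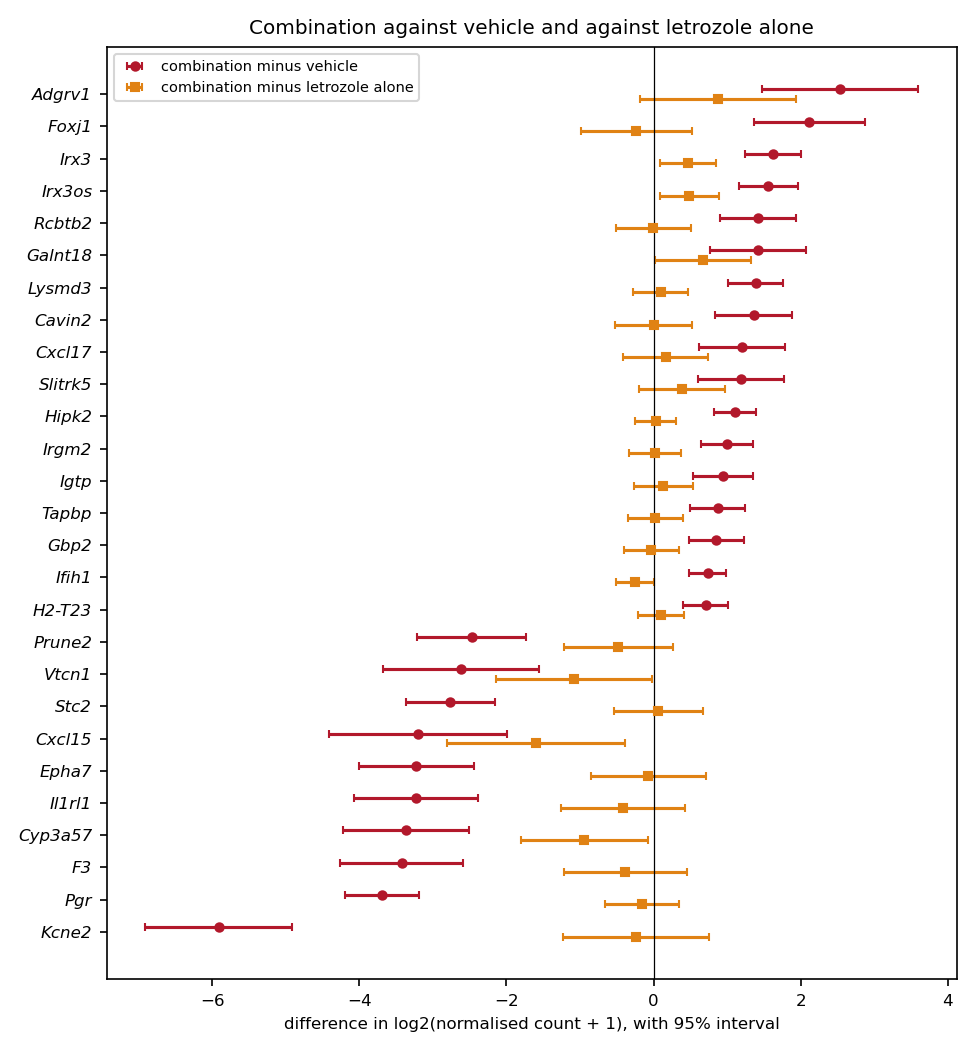
Log2 difference with its 95% interval for 27 genes called between combination and vehicle, shown as combination minus vehicle (red circles) and as combination minus letrozole alone (orange squares). All red intervals exclude 0, from Kcne2 at -5.91 to Adgrv1 at 2.54, while 20 orange intervals include 0, and the 7 that do not, among them those of Cxcl15, Vtcn1, Irx3 and Ifih1, did not pass adjustment over all genes.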

How the data were processed

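The deposited table holds normalised counts (a signal that is not whole) for 127442 transcripts in 20 bulk RNA-seq libraries made from 1 µg of RNA. Per the submitters' processing notes, the authors used STAR 2.7.10a, DESeq2 (no version named) and the mouse build GRCm39. No source used here names the counter or its use of strand. Dividing out a size factor per library, 0.472 to 1.46, gave whole reads for 100% of values (tolerance 0.001). Of the transcripts, 118889 (93.3%) were named from GENCODE names on GRCm38, and the 8553 others held 1.79% to 2.76% of the reads. Each of 38996 genes was represented by the transcript with the most reads, because many transcripts repeat each other's values, and 50 genes with a shared symbol were left out.

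Values were tested as log2(value + 1) with limma 3.58.1 (R 4.3.3), with a trend in the variance, in a fit of 4 group means over 20 libraries, which leaves 16 residual degrees of freedom. A gene entered when 5 or more libraries reached 10, and the Benjamini-Hochberg method adjusted the p-values. The design text gives 5 biological replicates per group, taken here as 1 tumour each, and the sample titles only number them. The p-values measure the spread between these samples. The design foresaw genes as rows, and transcripts were reduced to genes as above. edgeR 4.0.16 and DESeq2 1.42.0 were run on recovered reads, and all 3 tools were tested on simulated data, where limma recovered 44% of 2-fold and 65% of 4-fold changes between combination and vehicle over 19877 genes. Recovered depth gave a median of 254 reads per gene and library. In each library 52.9% to 58.5% of the recovered values above 0 were even, so both mates of a read pair may have been counted and the number of fragments may be lower, which the sources used here do not state.

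The comparison, gene lists and named genes were chosen with earlier results of these data known. Named were a panel of genes of oestrogen and PD-1 biology whatever their values, up to 10 called genes per direction with the largest change that lay above the median level without overlap (predicted genes left out), up to 3 called members of each list with the smallest p (or 1 member where none was called), and 3 genes per direction for each contrast with a single treatment. A few of these genes are not reported here. Promoters and gene order came from RefSeq on GRCm38.p6. Same-numbered libraries did not deviate together, with correlations of -0.241 to 0.0687, so the numbers were not used as pairs. Alternatives changed the pseudocount, filter, normalisation, model, tool, gene summary and the libraries included. Leaving out the 2 libraries that stand apart was chosen after seeing the data.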

Additional observations from a re-analysis of the deposited data

Results flagged for a closer look

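Some tumours lay far from the other 4 of their group, by a gap that chance gives in about 1 in 20 groups. Every tested gene named for the combination against vehicle was scanned in both groups, so chance alone gives several such gaps. The flags are therefore a description. Cd274 was 104 in combination tumour 3, below 143 to 152 in the others. Cd4 was 71.6 in combination tumour 2, above 8.73 to 14.7 in the others. Cxcl15 was 9.28 in combination tumour 3, below 126 to 297. Cyp3a57 was 604 in vehicle tumour 2, below 743 to 784, and 19.3 in combination tumour 3, below 78.8 to 136. Hk2 was 756 in vehicle tumour 3, below 2092 to 2552. Pdcd1 was 30.9 in vehicle tumour 3 and 0 in the others. Combination tumour 3 and vehicle tumour 3 account for most of these values.

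Transcripts without a gene name were tested in the same way, outside the comparison above. Of 3983 tested, 57 were called between combination and vehicle (1.43%), 46 higher and 11 lower. The smallest p was that of ENSMUST00000243559, which rose from 373 ± 106 to 1079.7 ± 195 normalised counts (log2 difference 1.56, limma adjusted p = 0.000125).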

How the results depend on the processing

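Pgr fell by 3.52 to 3.80 on the log2 scale in every alternative run. Of the 91 genes higher and 143 lower with the combination than with vehicle, the counts became 59 higher with no filter, 60 higher after centring on the library median, 47 and 74 with the 2 groups alone, 261 and 419 with DESeq2, 223 and 337 with array weights, and 441 and 513 without the 2 libraries that stand apart. Leaving out 1 library gave 39 to 308 higher and 82 to 388 lower. Against letrozole alone, limma's 0 calls (628 unadjusted) became 1 with the replicate block, 9 with DESeq2 and 0 to 1 without 1 library. Against anti-PD-1 alone, 213 became 110 with no filter, 60 with the 2 groups alone, 532 with DESeq2 and 72 to 255 without 1 library. The cause of these shifts was not tested, except that the 2 groups alone leave fewer samples and no filter adds genes. The replicate numbers did not pair the tumours (1 of 10 libraries correlated best with its own number), and the replicate block called 280 genes against vehicle, of which 216 were among the 234. It gave Lama3 an adjusted p of 0.0402 against letrozole alone. The difference of Esr1, near 0, changed sign to -0.0403 when centred, -0.0237 with edgeR and -0.00658 with DESeq2, and ran from -0.0744 to 0.106 without 1 library (negative without vehicle tumour 2 or 5 or combination tumour 3 or 4). That of Cxcl9 ran from -1.42 to 0.208, positive without combination tumour 3. Of 41 named genes called against vehicle, 20 were called in each alternative that gave them a value. Genes with few reads, such as Ifng and Gzmb, are limited by depth.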

Other observations

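Further genes on no list changed and are named after their values were seen. Slc12a2, the sodium-potassium-chloride cotransporter NKCC1, had 21268, 27319, 17161, 34040 and 21424 in the vehicle tumours and 4303, 13362, 4612, 6938 and 13374 in the combination tumours and fell without overlap (log2 difference -1.64, adjusted p = 0.00592). Aqp5, a water channel of secretory epithelia, had 1898, 1969, 1338, 1620.2 and 1372 in the vehicle tumours and 492, 643, 446, 741 and 607 in the combination tumours (log2 difference -1.49, adjusted p = 0.000315). Slc5a5, the sodium-iodide symporter, fell by 2.49 on the log2 scale (adjusted p = 0.00385), P2ry4, a nucleotide receptor, by 2.99 (adjusted p = 0.000156), Asic1, an acid-sensing ion channel, by 1.81 (adjusted p = 0.00592) and Kcns3, a potassium channel subunit, by 1.39 (adjusted p = 6.69e-05). Cnnm2, linked to magnesium transport, rose (log2 difference 0.81, adjusted p = 0.0154).

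Both Stat5 genes, which carry prolactin signals in mammary epithelium, fell without overlap, and these too were chosen after their values were seen. Stat5a had 1579.8, 1501, 1409.8, 1721 and 1389 in the vehicle tumours and 813, 992, 771, 863 and 892 in the combination tumours (log2 difference -0.81, adjusted p = 0.0186), and Stat5b had 1774, 1915, 1989, 1821 and 1615 in the vehicle tumours and 1435, 1394, 1309, 1381 and 1466 in the combination tumours (log2 difference -0.38, adjusted p = 0.0264). Msx2, a homeobox gene, and Podxl, a sialomucin, fell by 1.43 and 1.92 on the log2 scale (adjusted p = 4.45e-05 and 2.5e-05). Lgals3bp, a secreted glycoprotein, had 659, 623, 1228, 739 and 806 in the vehicle tumours and 1501, 1362, 2120.1, 1652 and 2387 in the combination tumours and rose without overlap (log2 difference 1.16, adjusted p = 0.0113).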
